A study of Mus musculus with 22 samples.

Results

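The constitutive proteasome and its regulators were followed through cells of the mouse hippocampus in a tau transgenic line and its controls. The genes were chosen by symbol: every row of the count table that starts with Psma, Psmb, Psmc, Psmd, Psme, Psmf or Psmg and a digit, without the immunoproteasome genes Psmb8, Psmb9 and Psmb10. This rule found 44 of the 13685 genes of the table and used no measured value. Of these, 7 encode the alpha ring of the core particle, 3 its catalytic and 4 its non-catalytic beta subunits, 6 the ATPases and 11 the other subunits of the regulatory particle, 3 chaperones of the regulatory particle, 4 chaperones of the core, 4 alternative activators and 1 an inhibitor. The last, Psmc3ip, matches the rule by name alone: it encodes a partner of meiotic recombinases and is no proteasome subunit, and it is kept apart below.

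Single cells from the hippocampus of 22 mice had been profiled by Drop-seq, which counts the 3′ ends of the transcripts of cells caught in droplets with barcoded beads. The groups held 5 old wild-type (WT) littermates aged 32 to 40 weeks, 4 old rTg4510 animals of 32 to 38 weeks, 4 young WT of 5 to 6 weeks, 3 young rTg4510 of 4 to 5 weeks, 3 old P301L of 41 to 48 weeks and 3 old rTta animals of 33 weeks. All carry the strain label Fvb/B6, and the series text gives a lower age range for the young animals than the sample labels do. The rTg4510 mouse carries P301L-mutant human tau behind a tetracycline-controlled promoter, which is switched on by a transactivator (tTA) that the Camk2a promoter drives in forebrain excitatory neurons. The labels give the P301L and rTta genotypes by name only. The P301L animals were older than any other group, so age and genotype cannot be told apart there.

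The proteasome is the protease that degrades ubiquitin-tagged proteins. Its core particle is a barrel of alpha and beta rings whose inward-facing beta subunits Psmb5, Psmb6 and Psmb7 cut proteins after different residues, and its regulatory particle binds the ubiquitin chain, removes it and threads the substrate into the barrel with a ring of ATPases. Other caps can replace the regulatory particle: Psme1 and Psme2 together form an activator that interferon induces along with the immunoproteasome, Psme3 forms a nuclear activator and Psme4 a large cap linked to histone turnover. Tau is a substrate of the proteasome, and impaired proteasome activity has been described in brains with tau pathology, which is why transcripts of this machine are of interest in a tau line. Transcript levels are not protein levels or activity, and neither was measured here.

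The 27198 cells kept had at least 300 counts each. Summed totals of the animals lay between 780831 and 6039656, with a median per animal of 638 to 2021 counts per cell. Per kept cell the depth was lowest in the control lines, with medians of 638 to 729.5 in P301L and 722.5 to 814.5 in rTta animals. Of the genes, 12614 were counted in every animal, among them all 44 members, whereas 270 had no count in any animal of the P301L and rTta lines and 801 none in any other animal, so that the table joins 2 parts and a comparison of these lines with WT or rTg4510 also compares the parts. The animals named P301L replicate 3 and rTta replicate 3 shared 176 cell barcodes, each of which had its most similar profile under the same barcode in the other animal. These cells made up 21.7% of the kept cells of the former and 11.9% of those of the latter, and results that rest on these animals are given with and without them. The tau gene followed the labels: Mapt in excitatory neurons stood at 1378 to 1914 CPM (counts per 1000000 counts of the class in an animal) in old rTg4510 and at 464.2 to 575.0 in old WT, 460.6 to 578.3 in P301L and 492.4 to 642.4 in rTta animals.

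Cells were clustered without the members and named by marker genes. This gave 8272 excitatory neurons, 4052 oligodendrocytes, 3550 astrocytes, 2874 microglia, 1972 endothelial cells, 1572 oligodendrocyte precursors, 1342 interneurons, 957 choroid plexus cells, 796 mural cells, 240 fibroblasts and 44 perivascular macrophages, and left 1527 (5.61%) unnamed. The defining markers were present where they should be: the microglial C1qa had a median over animals of 3848 CPM in microglia and 19.2 in excitatory neurons, and the endothelial Cldn5 one of 2762 in endothelial cells and 8.80 in excitatory neurons. Choroid plexus cells came from few animals and reached 34.1% of the cells of 1 old rTg4510 animal. In sums over all cells, a change in the mix of cells and a change of RNA per cell cannot be told apart.

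All members were detected throughout. Over all kept cells their counts ran from 1356 for Psmf1, the inhibitor PI31, to 31221 for the alpha subunit Psma7, and the share of cells with a count from 4.35% to 44.8%. Summed over the 44 members, the level had a median over the 22 animals of 6349 CPM in all cells. Among classes it was highest in choroid plexus, at a median of 9082 CPM (8828 to 10005, 5 animals), followed by endothelial cells at 7278 (5875 to 9310). Excitatory neurons stood at 6569 (5641 to 8376) and oligodendrocytes at 6456 (5148 to 7643), whose ranges overlap almost wholly. Astrocytes stood at 5462 (4643 to 6464) and microglia at 4834 (3863 to 6647). Within animals the sum was higher in excitatory neurons than in astrocytes and than in microglia in 22 of 22 each, than in oligodendrocytes in 16 of 22, and lower than in endothelial cells in 16 of 22. CPM is scaled to total counts, which shifts all genes between classes. Under it the median log2 change of all genes, excitatory neurons minus the other class, was 0.33 for astrocytes and 0.37 for microglia. It was 0.275 for oligodendrocytes and 0.08 for endothelial cells. How far the sums differ beyond this shift was not tested.

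**Figure D1:**
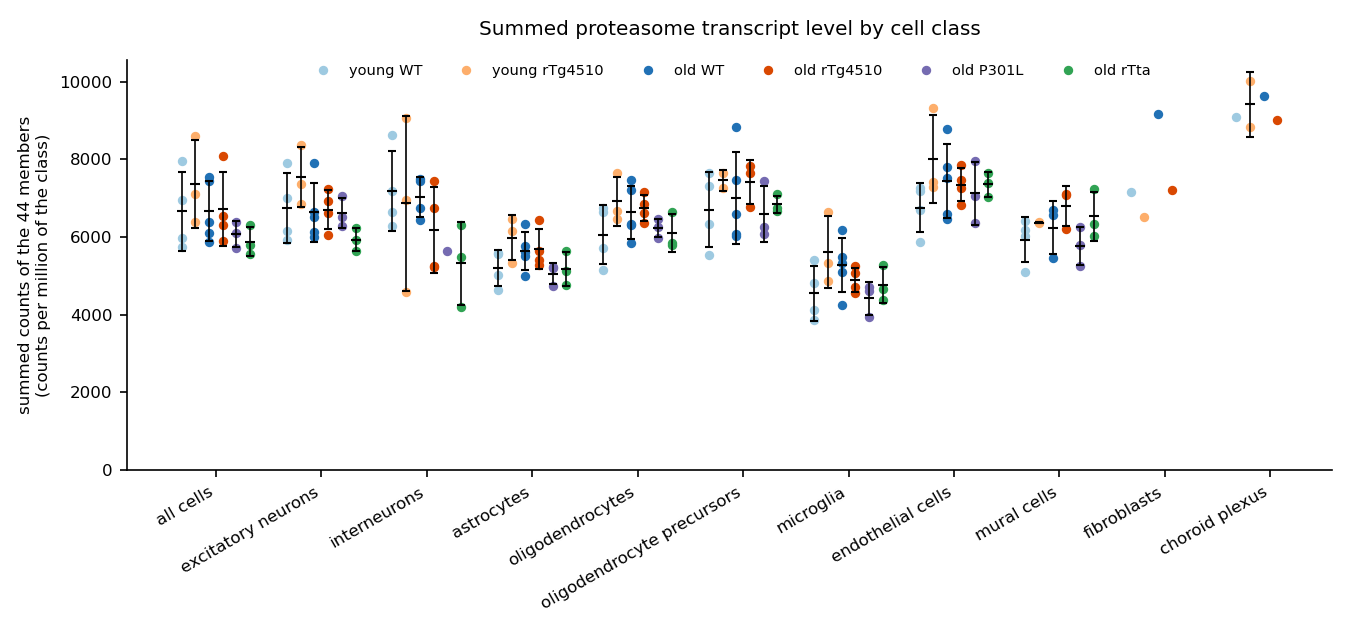
Summed level of the 44 members (CPM, y axis) in each cell class (x axis), 1 point per animal coloured by group, with black marks for the group mean and SD where a group has at least 2 animals. Astrocytes and microglia sit below excitatory neurons, and choroid plexus sits highest. CPM is not corrected for the shift of all genes between classes.

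In all cells and in excitatory neurons the sums of rTg4510 and WT animals overlapped at both ages. In all cells they were 6669 ± 773 CPM (SD, n = 5) in old WT, 6716 ± 959 (n = 4) in old rTg4510, 6657 ± 1011 (n = 4) in young WT, and 7358 ± 1132 (n = 3) in young rTg4510 animals. The P301L line had 6072 ± 334 and the rTta line 5885 ± 379 (n = 3 each). Without the animals that share barcodes the values were 5721 and 6386 in P301L and 5796 and 5558 in rTta. In excitatory neurons, the cells that express the transgene, old WT animals had 6643 ± 758 and old rTg4510 animals 6705 ± 501. In these 2 sets the rTg4510 and WT means differed at both ages by less than the SD of the WT animals. Among young animals the means lay further apart in other classes: 8007 ± 1131 in rTg4510 against 6753 ± 636 in WT in endothelial cells, where the ranges did not overlap (7290 to 9310 against 5875 to 7263), 5986 ± 581 against 5205 ± 455 in astrocytes and 5615 ± 926 against 4548 ± 701 in microglia, where they did (n = 3 and 4). No test was made on sums. The rTta animals had the lowest mean in excitatory neurons, 5933 ± 292, and their range of 5641 to 6226 overlapped that of old WT, 6000 to 7911, but not that of P301L, 6291 to 7062. Without the sharing animals the rTta values there were 5933 and 5641.

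Old rTg4510 animals were set against old WT to ask whether established tau pathology comes with another level of proteasome transcripts. No member passed the threshold. With edgeR's quasi-likelihood test and Benjamini-Hochberg adjustment at 0.05, 0 of 44 members were called in all cells, where 0.185% of the 12414 genes tested were called. Of the members, 2 (4.55%) had an unadjusted p below 0.05, where 8.47% of all genes had, and DESeq2 also called 0. The median log2 change of the members was 0.10 (median of all genes tested 0.02), with 29 of 44 above 0 and single changes between -0.51 and 0.47. For 40 of the 44 the 95% interval of the change lay wholly within a doubling or a halving, so larger changes of these members are outside what the intervals allow.

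Among the catalytic subunits, Psmb5, which carries the chymotrypsin-like activity, had the lowest estimate. It stood at 109.4, 103.7, 109.3, 139.0 and 130.6 CPM in the 5 old WT animals and at 90.0, 54.7, 70.0 and 106.4 in the 4 old rTg4510 animals. Each of the groups keeps to its own side but for the rTg4510 animal at 106.4, which lies between the WT animals. The log2 change was -0.51 ± 0.20 (SE; 95% interval -0.92 to -0.10), with an unadjusted p of 0.0179 and an edgeR adjusted p of 0.448, so the call was not made. By animal number, a label that falls into a lower and a higher range within each age, Psmb5 was below WT in both ranges: 54.7 to 90.0 against 103.7 to 109.4 CPM in the lower and 70.0 to 106.4 against 130.6 to 139.0 in the higher. Psmb7, the trypsin-like subunit, was at 59.8, 80.7, 83.0, 47.5 and 99.6 CPM in old WT and 61.9, 37.2, 33.5 and 72.3 in old rTg4510 animals, and these ranges overlap (log2 -0.49 ± 0.28, edgeR adjusted p = 0.651). Psmb6, the caspase-like subunit, was at 257.2, 247.2, 295.7, 378.5 and 230.2 CPM in old WT and 245.1, 271.1, 421.7 and 246.0 in old rTg4510 animals (log2 0.16 ± 0.24, edgeR adjusted p = 0.865). Processed pseudogenes of Psmb5, Psmb6 and Psmb7 exist in the mouse genome, and how reads shared with them were counted is not given in the sources used here.

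Psmb5 and Psmb6 were among the 6 of 37 members with a sequence in the RefSeq promoter table (250 bases before to 50 after the start, GRCm38.p6) that hold the letters TGACNNNGC of an antioxidant response element on either strand. This is the site that the stress regulators Nfe2l1 and Nfe2l2 bind. The share, 16.2%, stands beside 14.0% of all 27025 promoters of that length. The others were Psmc6, Psmd9, Psmd12 and Psme4. A match of letters is a description and no evidence of binding. The promoters of the pair of catalytic subunits are shown because the same motif sits in both. Their estimates in old rTg4510 animals had opposite signs, and neither was called. The highest Psmb6 value, 421.71 CPM in old rTg4510 replicate 3, stood apart from the other animals of the group at 245.1 to 271.05. That animal held 34.1% choroid plexus cells, and the part of the cell mix in the sign was not tested. Capitals mark the match; Psmb5 lies on the minus strand at chr14:54617946-54618245 and Psmb6 on the plus strand at chr11:70525107-70525406.
Psmb5: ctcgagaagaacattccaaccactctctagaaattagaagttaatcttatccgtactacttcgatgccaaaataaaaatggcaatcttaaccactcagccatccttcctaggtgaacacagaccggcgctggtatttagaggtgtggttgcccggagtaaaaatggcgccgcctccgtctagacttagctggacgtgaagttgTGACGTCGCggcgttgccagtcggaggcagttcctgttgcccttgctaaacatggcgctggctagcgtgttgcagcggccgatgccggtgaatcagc
Psmb6: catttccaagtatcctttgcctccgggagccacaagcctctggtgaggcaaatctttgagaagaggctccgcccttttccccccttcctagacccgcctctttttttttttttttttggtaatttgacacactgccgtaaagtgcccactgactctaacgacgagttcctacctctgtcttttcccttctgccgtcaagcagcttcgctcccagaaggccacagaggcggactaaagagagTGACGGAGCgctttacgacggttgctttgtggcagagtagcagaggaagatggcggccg

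The other parts of the machine gave no call in all cells. In the alpha ring the 7 log2 changes ran from -0.24 to 0.21, and Psma7 had 0.17 ± 0.18 (edgeR adjusted p = 0.797). In the non-catalytic beta subunits the 4 changes ran from -0.13 to 0.29, with Psmb1 at 0.24 ± 0.28 (edgeR adjusted p = 0.822). Among the 6 ATPases, which unfold substrates, they ran from -0.28 for Psmc1 (SE 0.21, edgeR adjusted p = 0.722) to 0.26. Among the 11 other subunits of the regulatory particle they ran from -0.17 to 0.47. Psmd7, which pairs with the deubiquitinating subunit, had -0.06 ± 0.16 (edgeR adjusted p = 0.934). The chaperones Psmd10, of the regulatory particle, and Psmg2, of the core, had 0.32 ± 0.28 and 0.09 ± 0.17, and the inhibitor Psmf1 0.27 ± 0.17. None of these intervals excluded 0.

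All 4 alternative activators had estimates above 0. Psme4 had the smallest p of any member: it stood at 50.4, 53.8, 64.4, 41.7 and 64.9 CPM in old WT and at 62.5, 75.1, 73.0 and 67.3 in old rTg4510 animals. Only the lowest rTg4510 animal falls among the WT animals. The log2 change was 0.42 ± 0.16 (95% interval 0.09 to 0.74), with an unadjusted p of 0.0155 and an edgeR adjusted p of 0.434. At the young age the estimate for Psme4 had the other sign, -0.21 ± 0.18, and the difference between the ages was 0.62 ± 0.24 (unadjusted p = 0.0154, edgeR adjusted p = 1). Psme1 had 0.28 ± 0.25 (edgeR adjusted p = 0.771), Psme2 0.28 ± 0.41 (adjusted p = 0.852) and Psme3 0.04 ± 0.17 (adjusted p = 0.972).

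**Figure D2:**
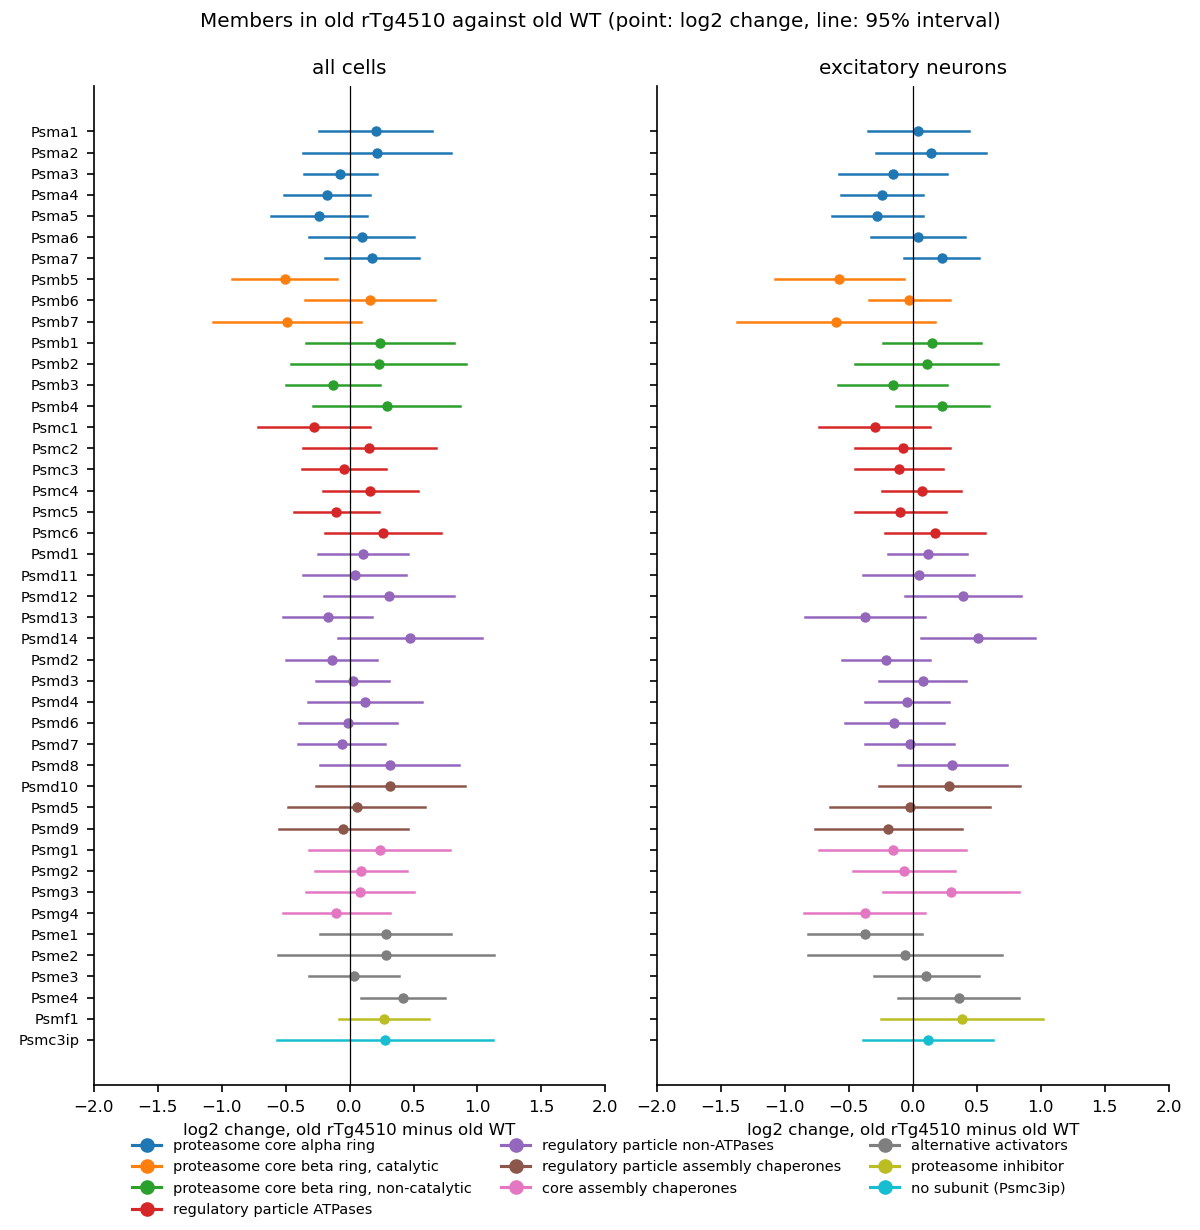
Log2 change of each of the 44 members between old rTg4510 and old WT animals (x axis; point, estimate; line, 95% interval), in all cells and in excitatory neurons, coloured by role. Most intervals cross 0; in all cells those of Psmb5, below 0, and Psme4, above 0, do not, and neither gene passed the adjusted threshold.

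With a term for the range of animal numbers in the fit, 0 members were called as well. Within cell classes the result was the same, with or without this term. Members were tested where counts allowed, 44 in excitatory neurons and in oligodendrocytes, 40 in interneurons, 39 in astrocytes, 36 in endothelial cells, 33 in microglia, 32 in oligodendrocyte precursors and 18 in mural cells. Of these 286 pairs of a member and a class, 0 were called by edgeR (adjusted within a class) or by DESeq2, against 0.459% of 41155 pairs over all genes. An unadjusted p below 0.05 was found for 14 (4.90%), against 7.70% of all pairs. The median log2 change over the pairs was 0.04. In excitatory neurons it was -0.02, and 41 of 44 intervals lay within a doubling or a halving. In microglia it was 0.14, with 18 of 33 intervals so narrow, and in mural cells 1 of 18, so these classes bound the members less tightly.

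Psmb5 had a negative estimate in each of the 7 classes where it was tested. Its log2 change was -0.57 ± 0.25 in excitatory neurons, -0.64 ± 0.30 in astrocytes, -0.59 ± 0.33 in oligodendrocytes, -0.99 ± 0.45 in microglia, -1.09 ± 0.38 in interneurons, -0.49 ± 0.41 in oligodendrocyte precursors and -0.15 ± 0.38 in endothelial cells. Its edgeR adjusted p was between 0.299 and 0.999 in these classes, and the classes of an animal share its library. In endothelial cells the mean CPM was slightly higher in old rTg4510 (92.4 ± 42.0, SD, n = 4) than in old WT animals (88.5 ± 21.6, n = 5), against the sign of the fit. In excitatory neurons Psmb5 stood at 124.6, 112.2, 127.1, 118.7 and 156.1 CPM in old WT and at 97.5, 62.6, 45.1 and 141.7 in old rTg4510 animals, so that 3 of 4 animals were below all WT animals and 1 was among them. Psmd14, the deubiquitinating subunit, pointed the other way there, at 99.7 to 200.1 CPM in old WT and 191.7 to 238.7 in old rTg4510 animals (log2 0.51 ± 0.22, unadjusted p = 0.0265, edgeR adjusted p = 0.51).

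In microglia the interferon-inducible activator had the highest estimates. Psme2 stood at 45.3, 30.2, 23.4, 118.2 and 113.1 CPM in old WT and at 171.9, 102.0, 44.2 and 164.2 in old rTg4510 animals (log2 0.96 ± 0.41, edgeR adjusted p = 0.235). Psme1 stood at 124.5, 301.7, 70.1, 155.1 and 198.0 CPM in old WT and at 277.7, 224.2, 113.0 and 246.3 in old rTg4510 animals (log2 0.69 ± 0.32, edgeR adjusted p = 0.315). Both overlap between the groups. The immunoproteasome subunit Psmb8, no member, was called there by edgeR, at 132.1 ± 33.5 CPM (SD, n = 5) in old WT and 259.1 ± 69.1 (n = 4) in old rTg4510 animals (log2 1.23 ± 0.28, edgeR adjusted p = 0.00631), while Psmb9 and Psmb10 were not (log2 0.62 ± 0.41 and 0.47 ± 0.30). In interneurons Psme1 pointed down, at 103.7 to 138.6 CPM in 4 old WT and 48.5 to 63.9 in 4 old rTg4510 animals, which do not overlap but rest on 5 to 20 counts per animal (log2 -1.11 ± 0.35, edgeR adjusted p = 0.829). It was called in neither class.

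Young rTg4510 animals, sampled at 4 to 5 weeks, had no member called against young WT. In all cells 0 of 44 members were called, as were 0% of all genes, and no member had an unadjusted p below 0.05; DESeq2 and the fit with a term for the number range called 0. Within classes 0 of 286 pairs were called, against 0.0219% of all pairs, with 12 at an unadjusted p below 0.05. The median log2 change was 0.15 in all cells and 0.09 over the class pairs. The 4 young WT animals themselves spread widely: Psmb1 stood at 271.6, 269.0, 609.2 and 498.2 CPM and Psmc1 at 448.7, 418.3, 223.4 and 265.6. The lower pair of Psmb1 values and the higher pair of Psmc1 values belong to the same animals, which are those of the lower number range and of 5 weeks, the others being of the higher range and of 6 weeks.

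Age gave no call either. Between old and young WT, 0 of 44 members were called in all cells (0% of all genes), and 0 of 286 pairs (0.462% of all pairs). At an unadjusted p below 0.05 were 3 members (6.82%, of all genes 4.96%) and 14 pairs (4.90%, of all pairs 7.41%). The median log2 change in all cells was -0.00. Psme4 was at 41.7 to 64.9 CPM in old WT and at 72.2 to 86.4 in young WT animals, which do not overlap (log2 -0.50 ± 0.16, unadjusted p = 0.00429, edgeR adjusted p = 0.682). Between old and young rTg4510, 0 of 44 members (0.161% of all genes) and 0 of 286 pairs (0.411%) were called. At an unadjusted p below 0.05 were 1 member (2.27%, of all genes 7.86%) and 6 pairs (2.10%, of all pairs 6.23%). Without the old rTg4510 replicate 3 edgeR called Psme1 and Psme2 higher in microglia of old than of young rTg4510 animals. Without young WT replicate 1 it called Psmb5 between old and young WT in oligodendrocytes. DESeq2 called 0 in these comparisons. The difference between the ages in the effect of the line was called for 0 members in all cells (0% of all genes) and for 0 of 286 pairs (0.00243%). At an unadjusted p below 0.05 were 1 member (2.27%, of all genes 3.64%) and 8 pairs (2.80%, of all pairs 5.68%).

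The P301L and rTta lines, each against old WT, read the same table with the reserve about its parts. In P301L animals 0 of 44 members were called in all cells (0% of all genes), and 0 of 246 pairs in classes (0.908% of all pairs). At an unadjusted p below 0.05 were 4 members (9.09%, of all genes 14.8%) and 13 pairs (5.28%, of all pairs 12.1%). DESeq2 called 1 member in all cells, Psma3, as did edgeR without old WT replicate 1. In rTta animals 1 member was called in all cells, Psmc3ip (0.201% of all genes called), and 2 of 286 pairs, both Psmc3ip (0.547%). The medians of the 44 changes in all cells were -0.20 for P301L and -0.24 for rTta animals, where those of all genes were -0.03 and -0.04, and 9 and 6 of the 44 were above 0. Without both animals that share barcodes the medians were -0.18 and -0.30, with 7 and 4 above 0. Both comparisons use the same WT animals. The control lines had the lowest counts per cell, and the parts of depth and of the cell mix in this shift were not tested.

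**Figure D3:**
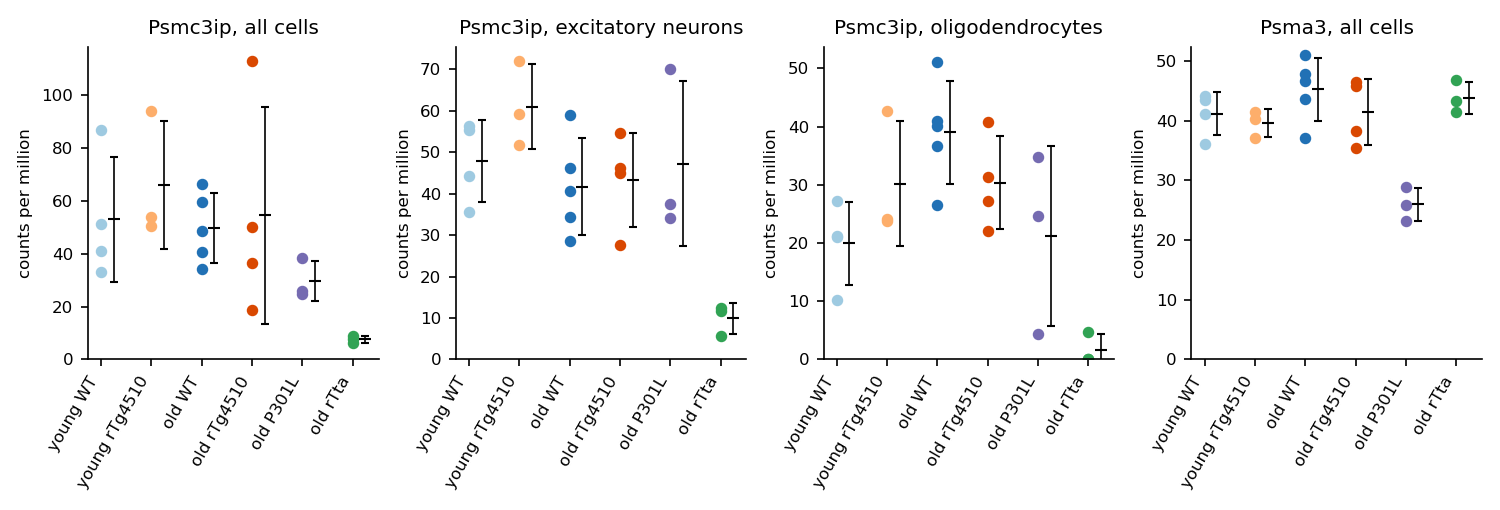
CPM of Psmc3ip in all cells, excitatory neurons and oligodendrocytes and of Psma3 in all cells (y axes), 1 point per animal in the 6 groups, with black marks for mean and SD. All 3 rTta animals lie below every other animal for Psmc3ip in all cells and in excitatory neurons, and all 3 P301L animals lie below every other animal for Psma3.

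Psmc3ip, which is no proteasome subunit, was lower in rTta animals. It stood at 6.25, 7.64 and 8.93 CPM (12, 12 and 13 counts) in all cells of the 3 rTta animals, at 34.2, 48.7, 59.5, 66.4 and 40.6 in old WT, 18.7, 50.1, 112.8 and 36.4 in old rTg4510 and 25.7, 38.4 and 24.6 in P301L animals. Every rTta animal was below every other animal of the series. The log2 change from old WT was -2.78 ± 0.56 (edgeR adjusted p = 0.036), and the ratio of the summed counts was 0.151 (95% interval 0.105 to 0.212, counting error only). Old rTg4510 against rTta gave 3.06 ± 0.57 (edgeR adjusted p = 0.0125; 0.346% of all genes called). The WT call in all cells was lost, with its size kept, in 7 of 18 alternatives (log2 -2.94 to -2.63, edgeR adjusted p up to 0.258): without old WT replicate 2, 3 or 4, without any 1 of the rTta animals, and without both animals that share barcodes. The rTg4510 call was lost in 5 of 17, with only the groups compared, without any 1 of the rTta animals and without both sharing animals (log2 2.31 to 3.34). Both comparisons use the same rTta animals.

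Cell classes gave the same direction for Psmc3ip. In excitatory neurons it stood at 5.63, 11.6 and 12.4 CPM in rTta animals, at 28.5 to 58.9 in old WT and at 34.1 to 70.0 in P301L animals. The log2 changes were -2.12 ± 0.36 against WT (edgeR adjusted p = 0.00212), 2.23 ± 0.36 for rTg4510 against rTta (0.000914, kept in 16 of 16 alternatives) and 2.37 ± 0.40 for P301L against rTta (0.00858). In oligodendrocytes 1 count was found in the 3 rTta animals and 44 in the 5 old WT animals, a ratio of 0.0422 (0.00105 to 0.248), and edgeR called the difference from WT (adjusted p = 0.00308) and from rTg4510 (adjusted p = 0.00898). The WT call was lost without rTta replicate 1 in excitatory neurons (edgeR adjusted p = 0.0622) and without rTta replicate 2 in oligodendrocytes (0.06). The rTg4510 call in oligodendrocytes was lost with DESeq2 and without rTta replicate 1 or 2. In interneurons the rTta animals had 0 of 204110 counts, which allows up to 14.7 CPM, and no rTta animal overlapped the WT animals in astrocytes or microglia. Psmc3ip was not called in interneurons or astrocytes and had too few counts for a test in microglia. The rTta and WT animals overlapped in endothelial cells, mural cells and oligodendrocyte precursors, where the lowest WT animal was at 0 CPM and it was not tested. In the precursors the ratio of summed counts was 0.246 (0.0268 to 1.11). The pairs called between rTg4510 and rTta were 2 of 286 (0.78% of all pairs). In all cells the P301L and rTta lines differed in 0 of 44 members (0.129% of all genes), with 2 (4.55%) at an unadjusted p below 0.05, against 10.5% of all genes. They differed in 1 of 246 pairs (0.228%), that of Psmc3ip in excitatory neurons. That call was lost without P301L replicate 2 and without rTta replicate 1.

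Psmc3ip lies on chromosome 11 at 101091823 to 101095436 on the minus strand (GRCm38, GENCODE vM21) and overlaps Mlx on the other strand. Mlx had a log2 change of -0.13 in rTta animals (edgeR adjusted p = 0.974). Whether counting used the strand is not given in the sources used here.

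Psma3, an alpha-ring subunit, was the only subunit called between groups, and it concerned P301L animals. It stood at 28.9, 25.8 and 23.2 CPM (37, 39 and 17 counts) in all cells of the 3 P301L animals, at 43.6, 37.1, 47.8, 46.6 and 50.9 in old WT, 45.8, 38.2, 35.4 and 46.5 in old rTg4510 and 43.2, 41.4 and 46.7 in rTta animals. Every P301L animal was below every other animal of the series. Excitatory neurons, where Psma3 was higher than in the 4 classes compared below, were 19.41 to 23.75% of the kept cells in P301L animals. They were 31.46 to 41.08% in old WT, 24.77 to 30.63% in old rTg4510 and 29.57 to 36.44% in rTta animals. The part of the cell mix was not tested. Old rTg4510 against P301L gave a log2 change of 0.77 ± 0.17 (edgeR adjusted p = 0.0269), the 1 call among 44 members, where 1.35% of all genes were called. An unadjusted p below 0.05 was found for 7 members (15.9%), against 19.0% of all genes. P301L against WT gave -0.84 ± 0.16 (edgeR adjusted p = 0.0932) and P301L against rTta -0.73 ± 0.18 (0.109). In excitatory neurons Psma3 was at 37.6, 18.7 and 28.4 CPM in P301L and at 31.2 to 73.8 in old WT animals, and in oligodendrocytes at 29.0 to 52.9 in P301L and 10.04 to 38.29 in old WT animals. The call for Psma3 was lost in 8 of 17 alternatives, namely total-count scaling, a fit of only the groups compared, leaving out any 1 of the P301L animals or the old rTg4510 replicate 3 or 4, and leaving out both animals that share barcodes (log2 0.66 to 0.81 over all). Within classes rTg4510 and P301L differed in 0 of 246 pairs (1.39% of all pairs), with 19 (7.72%) at an unadjusted p below 0.05, against 14.0% of all pairs. DESeq2 called 1, Psmd14 in excitatory neurons. Leaving out old rTg4510 replicate 3 gave a call by edgeR for Psme2 in microglia, and leaving out P301L replicate 3 for Psme3 there.

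Excitatory neurons were compared with astrocytes, oligodendrocytes, microglia and endothelial cells of the same 22 animals, with the animal as a block, for the 40 members with enough counts (Psmd5, Psmf1, Psmg1 and Psmg3 had too few). Against astrocytes edgeR called 22 of 40 members, against oligodendrocytes 29, against microglia 29 and against endothelial cells 26. Most genes differ between classes: of the 6639 genes tested, 41.2% were higher and 34.4% lower in excitatory neurons than in astrocytes, 36.9% and 42.6% against oligodendrocytes, 44.1% and 34.7% against microglia, and 38.4% and 38.1% against endothelial cells. Of the 40 members, 14 were higher and 8 lower in excitatory neurons than in astrocytes, 8 and 21 against oligodendrocytes, 26 and 3 against microglia, and 9 and 17 against endothelial cells. The higher calls thus made up a larger share of the members than of all genes against microglia and a smaller one against oligodendrocytes and endothelial cells. These shares were not tested. Scaling shifts all genes here: the median log2 change of all genes was 0.08, -0.09, 0.15 and -0.01 in the 4 comparisons under TMM scaling, and 0.33, 0.27, 0.37 and 0.08 under total counts. Leaving out 1 animal, the TMM median against microglia lay between -0.16 and 0.16. Single members are therefore named below with a direction only where it held in every alternative that gave a value, which was so for 83 of the 106 calls, 44 higher and 39 lower in excitatory neurons. The call itself held in every alternative for 24 of the 106 and was lost in at least 1 for 80.

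The clearest differences were those of the interferon-inducible activator. Psme1 had a median over animals of 51.8 CPM in excitatory neurons (32.8 to 74.4), 152.1 in microglia (70.1 to 301.7) and 265.0 in endothelial cells (149.6 to 447.5). The lowest endothelial value is above the highest neuronal one. Its log2 change was -2.54 ± 0.12 against endothelial cells (edgeR adjusted p = 1.23e-37) and -1.86 ± 0.13 against microglia (2.87e-25), and it was lower in excitatory neurons in 22 of 22 animals in each. Psme2 had medians of 22.8 CPM in excitatory neurons (8.96 to 44.6), 57.0 in microglia and 131.9 in endothelial cells. Its log2 change was -2.61 ± 0.15 against endothelial cells (edgeR adjusted p = 4.89e-32, lower in 22 of 22 animals) and -1.79 ± 0.16 against microglia (1.75e-18, lower in 21 of 22). These 4 calls held in every alternative. The immunoproteasome genes differed in the same direction, by -6.01 for Psmb8, -5.77 for Psmb9 and -1.76 for Psmb10 against endothelial cells.

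Against the other glia Psme1 and Psme2 parted. Both were lower in excitatory neurons than in astrocytes, by -0.66 ± 0.14 and -0.99 ± 0.17, and Psme2 was lower than in oligodendrocytes, by -0.85 ± 0.16. Psme1 in contrast was higher in excitatory neurons than in oligodendrocytes, by 0.42 ± 0.15 (edgeR adjusted p = 0.009, higher in 20 of 22 animals), where its median in oligodendrocytes was 27.8 CPM. The neuronal level of Psme1 was 19.6% and that of Psme2 17.3% of the endothelial level, whereas that of the endothelial marker Cldn5 was 0.32%. Choroid plexus cells had a Psme1 median of 182.8 CPM (148.8 to 204.3, 5 animals).

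**Figure D4:**
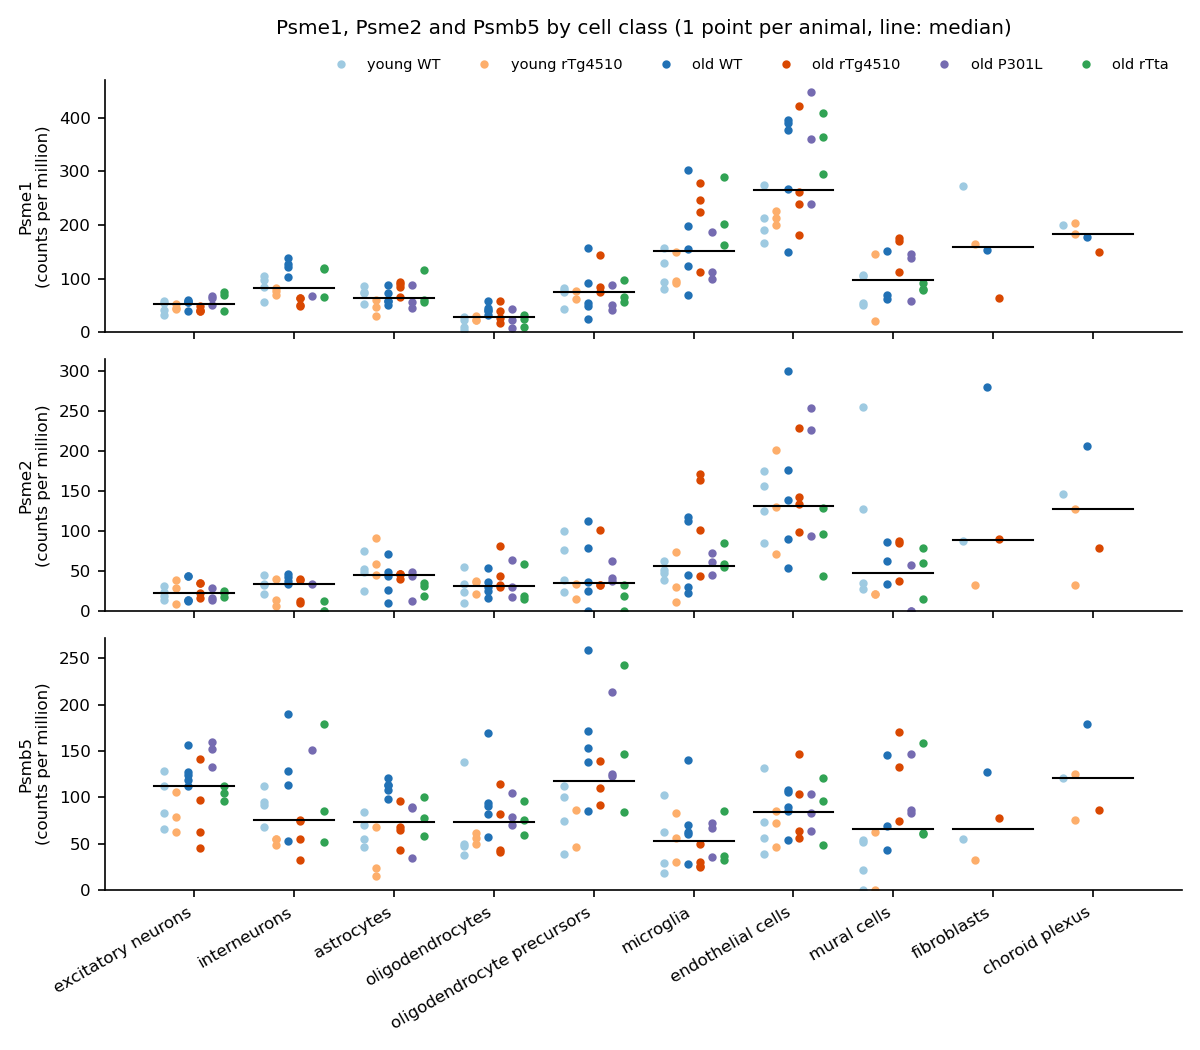
CPM of the activator subunits Psme1 and Psme2 and of the catalytic subunit Psmb5 (y axes) in each cell class (x axis), 1 point per animal coloured by group, with a line at the median. Psme1 and Psme2 are highest in endothelial cells, while Psmb5 has its median lowest in microglia.

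The start sites of Psme1 and Psme2 lie close together on chromosome 14, and their promoters are shown because both genes were lower in excitatory neurons than in microglia and endothelial cells. The core letters of an interferon-stimulated response element, GAAANNGAAA on either strand, were searched for after these levels had been seen. They were found in 5 of 37 members, 13.5%, and in 3.99% of all 27025 promoters: in Psmb3, Psmd4, Psmd9, Psme1 and Psmg4. They were in Psme1 (plus strand, chr14:55578244-55578543; capitals mark the match) and were not in this window of Psme2 (minus strand, chr14:55591052-55591351) or of the 3 immunoproteasome genes. The CCAAT box, the other motif counted, was in 35.1% of the members' promoters and in 41.1% of all.
Psme1: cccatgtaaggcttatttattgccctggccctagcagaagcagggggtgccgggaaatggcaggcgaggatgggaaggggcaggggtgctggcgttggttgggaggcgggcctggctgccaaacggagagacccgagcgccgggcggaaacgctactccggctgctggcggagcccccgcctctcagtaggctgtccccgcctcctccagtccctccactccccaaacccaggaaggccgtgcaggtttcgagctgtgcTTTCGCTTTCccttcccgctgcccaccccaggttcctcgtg
Psme2: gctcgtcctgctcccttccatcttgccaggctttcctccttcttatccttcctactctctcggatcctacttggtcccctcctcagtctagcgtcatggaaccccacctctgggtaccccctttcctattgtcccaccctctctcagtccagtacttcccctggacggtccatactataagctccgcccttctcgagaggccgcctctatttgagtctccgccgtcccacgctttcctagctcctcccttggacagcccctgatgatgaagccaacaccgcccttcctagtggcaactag

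In the core particle, directions differed between subunits of the same ring. Psma3 was higher in excitatory neurons than in all 4 other classes, by 0.94 ± 0.18 against astrocytes (median 51.5 CPM against 29.3), 0.39 ± 0.16 against oligodendrocytes, 0.92 ± 0.20 against microglia and 0.63 ± 0.20 against endothelial cells. Psma7 was lower than in endothelial cells, by -0.70 ± 0.07 (519.2 CPM against 830.5, lower in 22 of 22 animals), and lower than in oligodendrocytes, by -0.55 ± 0.07. Psma5 was higher than in microglia by 0.73 ± 0.11 (22 of 22 animals), and Psma1 was higher than in oligodendrocytes by 0.48 ± 0.09. Psma2 was lower than in oligodendrocytes, by -0.56 ± 0.07. Each of these passed the threshold with edgeR, with the same sign in every alternative that gave a value. Psma3 gave a value in 6 of 8 settings other than leaving out 1 animal. It had too few counts for the tests within astrocytes, microglia and endothelial cells. It may have entered this fit only through classes where it is higher, so its differences from these classes are a description.

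The catalytic subunits did not move as a set. Psmb5 was higher in excitatory neurons than in all 4 classes, by 0.27 ± 0.11 against astrocytes, 0.21 ± 0.10 against oligodendrocytes, 0.86 ± 0.13 against microglia (112.3 CPM against 53.1) and 0.28 ± 0.12 against endothelial cells. Its calls against astrocytes and oligodendrocytes each held in 5 of 8 settings other than leaving out 1 animal. Psmb6 was lower than in 3 of them, by -0.33 ± 0.08 against astrocytes, -0.75 ± 0.08 against oligodendrocytes (241.1 CPM against 331.2, lower in 21 of 22 animals) and -0.36 ± 0.09 against endothelial cells. Against microglia it was not called (-0.06 ± 0.09, edgeR adjusted p = 0.513). Psmb7 was lower than in oligodendrocytes, by -0.56 ± 0.11, and higher than in microglia, by 0.53 ± 0.14. In microglia it had too few counts for the tests within the class. The non-catalytic Psmb1 was lower than in oligodendrocytes in 22 of 22 animals, by -0.66 ± 0.07 (387.4 CPM against 521.4), and lower than in endothelial cells, by -0.34 ± 0.07.

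In the regulatory particle the direction depended on the class compared. Of the 6 ATPases, 4 were called higher in excitatory neurons than in astrocytes (41.2% of all genes), and these 4 kept their sign in every alternative. Against microglia 6 were called higher (44.1% of all genes) and 3 kept their sign, and against oligodendrocytes 4 were called lower (42.6% of all genes) and 1 kept it. Of the 11 other subunits, 5 were called higher than in astrocytes (41.2% of all genes) and kept their sign. Against microglia 10 were called higher (44.1% of all genes), of which 7 kept it, with 0 lower against either class. Against oligodendrocytes 2 were higher and 4 lower (36.9% and 42.6% of all genes), of which 1 and 2 kept their sign. Psmd1, a scaffold subunit, was higher in excitatory neurons than in all 4 classes, by 0.66 ± 0.08 against astrocytes, 0.20 ± 0.08 against oligodendrocytes, 0.72 ± 0.09 against microglia and 0.43 ± 0.09 against endothelial cells. It had a median of 238.4 CPM there and of 130.4 in astrocytes, and was higher in 22 of 22 animals against each of the first 3 classes. Psmd14 was higher than in astrocytes, by 0.69 ± 0.11, than in microglia, by 0.88 ± 0.12, and than in endothelial cells, by 0.75 ± 0.12, with a median of 177.7 CPM in excitatory neurons and 75.7 in microglia. Against oligodendrocytes it was not called (0.16 ± 0.10, edgeR adjusted p = 0.118). The ATPase Psmc1 was higher than in microglia by 0.64 ± 0.08, and Psmc2 higher than in astrocytes by 0.39 ± 0.09 and lower than in oligodendrocytes by -0.49 ± 0.08. Psmc6 was lower than in endothelial cells, by -0.43 ± 0.09, and higher than in astrocytes, by 0.39 ± 0.09.

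Of the 2 core chaperones tested, 2, 1, 1 and 2 were called lower in excitatory neurons than in astrocytes, oligodendrocytes, microglia and endothelial cells. Of the 2 tested chaperones of the regulatory particle it was 0, 2, 0 and 1. Of all genes 34.4%, 42.6%, 34.7% and 38.1% were lower. No assembly chaperone was called higher, and the call of Psmg4 against microglia turned its sign in old WT animals alone. Psmg4, of the core chaperones, was lower in excitatory neurons than in astrocytes in 22 of 22 animals, by -0.89 ± 0.14, and lower than in oligodendrocytes, by -0.57 ± 0.13, and endothelial cells, by -0.83 ± 0.16. Psmg2 was lower than in astrocytes, by -0.37 ± 0.13, and endothelial cells, by -0.48 ± 0.14. Of the regulatory particle's chaperones, Psmd9 was lower than in oligodendrocytes, by -0.96 ± 0.14 (40.2 CPM against 65.7), and Psmd10 likewise, by -0.85 ± 0.14. The activators outside the interferon-induced pair were higher where called: Psme3 than in oligodendrocytes, by 0.48 ± 0.15, and endothelial cells, by 0.43 ± 0.18, and Psme4 than in astrocytes, by 0.53 ± 0.14. Psme3 had too few counts for the tests within endothelial cells. It gave a value in 5 of 8 settings other than leaving out 1 animal. Psme3 may have entered this fit only through classes where it is higher, so its differences between classes are a description.

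**Figure D5:**
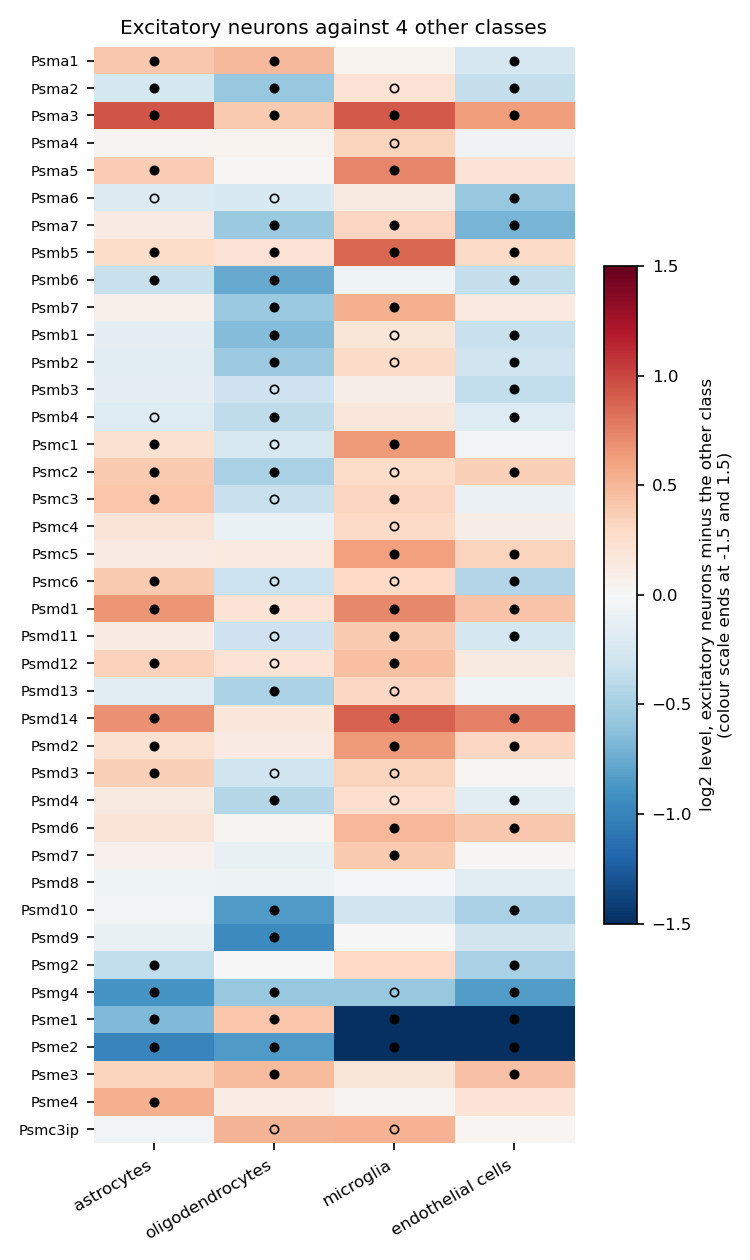
Log2 level of the 40 tested members in excitatory neurons minus that in 4 other classes (colour; red, higher in excitatory neurons), genes in rows ordered by role. Filled circles mark calls by edgeR whose sign held in every alternative and open circles calls whose sign turned in at least 1; Psme1 and Psme2 are below the colour scale against microglia and endothelial cells.

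By class, the calls with a stable sign were 14 higher and 6 lower against astrocytes, 6 and 14 against oligodendrocytes, 15 and 2 against microglia and 9 and 17 against endothelial cells. In a fit of the 5 old WT animals alone the calls fell to 6, 9, 6 and 8. The shares of all genes called in that fit, or called with a stable sign, are not given here. These counts are thus no result about the members in particular. Against microglia the calls numbered 14 to 16 in place of 29 when any 1 of old WT replicate 4, old rTg4510 replicates 1 and 2, young WT replicate 2 and P301L replicate 2 was left out. In these fits the median log2 change of all genes was -0.16 to -0.15, where it was 0.15 with all animals. The part of this shift in the number of calls was not tested. The sign turned in at least 1 alternative for 2, 9, 12 and 0 calls.

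Genes that work beside the proteasome were read as lists chosen with earlier results known. In old rTg4510 against old WT, 0 were called in all cells among 17 tested proteasome partners without a Psm symbol (median log2 0.03), 12 genes of ubiquitin and its activation (-0.01), 14 neuronal ubiquitin ligases and deubiquitinases (-0.02), 12 genes of Vcp and its cofactors (0.05) and 14 genes under Nfe2l1 and Nfe2l2 control (0.22). The median of all genes was 0.02. The ubiquitin ligases and deubiquitinases were listed as known in neurons, so higher calls in neurons partly follow from that choice and are a description. Between classes they were called higher in excitatory neurons for 10 of 13 genes against astrocytes, 10 against oligodendrocytes, 11 against microglia and 11 against endothelial cells. They were called lower for 1, 1, 0 and 0, where 41.2%, 36.9%, 44.1% and 38.4% of all genes were higher. All of these calls kept their sign in every alternative. Genes of Vcp, the segregase that hands substrates to the proteasome, were called lower in excitatory neurons for 8 of 9 against oligodendrocytes and 5 of 9 against astrocytes, with 0 higher in each, where 42.6% and 34.4% of all genes were lower. Of these, 7 and 5 kept their sign in every alternative.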

How the data were processed

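The authors deposited 1 table of whole-number counts per gene and cell for all 22 animals; per the submitters' processing notes, bcl2fastq 2.18.0.12 and STAR 2.2 were used with the mouse build mm10. The counter, annotation and filters are not given in the sources used here. Replicate numbers follow accession order and only name animals. The members, gene lists and tests were chosen with earlier results of these data known.

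Cells with at least 300 counts were kept. For clustering, each cell's counts were brought to a sum of 10000 and logged. From 2000 variable genes (members and immunoproteasome genes left out), 40 principal components, 15 neighbours and Leiden clustering (igraph 0.11.9, resolution 1) gave 43 clusters. A cluster was named where at least 3 markers stood at least 2-fold above the rest after adding 20 CPM. No doublet caller was run.

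Counts were summed per animal and class (at least 20 cells) and tested for genes counted in all animals with edgeR 4.0.16 (TMM, filterByExpr, robust quasi-likelihood F test, Benjamini-Hochberg threshold 0.05) in R 4.3.3, with all 6 groups in 1 fit per class; classes were compared in 1 fit with the animal as a block. Intervals are 95%. Named are all members past the threshold between groups in the main fits, the catalytic subunits, the activators and the member with most counts in each role. Further members were named after their values were seen. Between classes not every called member is named. The fits were tested on simulated data. DESeq2 1.42.0, other scalings and filters, and leaving out animals, shared barcodes or cells were alternatives.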

Additional observations from a re-analysis of the deposited data

Results flagged for a closer look

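Of 81 sets of values of a member in a group of 4 or 5 animals, 2 held an animal set apart from the rest by a gap that is large against the whole range of the group; chance alone gives about 1 in 20. Psmb6, the caspase-like subunit, stood at 421.71 CPM in all cells of old rTg4510 replicate 3, where the other 3 animals were at 245.1 to 271.05. This is the animal in which choroid plexus cells made up 34.1% of the kept cells, and the median of Psmb6 in choroid plexus was 532.2 CPM against 280.5 in all cells; the part of the cell mix was not tested. Psmf1, the inhibitor, stood at 28.78 CPM in all cells of old WT replicate 5, where the other 4 animals were at 21.47 to 23.07.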

How the results depend on the processing

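Of the 8 calls between groups, 8 kept their direction and 1 held in every alternative run. No paired analysis was possible because the replicate numbers follow accession order and pair no animals. The range of animal numbers was a term in an alternative for both comparisons of rTg4510 with WT; for old against young animals it was not run, since each range lies within 1 age. Against old WT, P301L animals had 1 member called with DESeq2 and 1 without choroid plexus cells (0 to 1 leaving out 1 animal), and rTta animals 0 without both animals that share barcodes (0 to 1). Old rTg4510 against P301L had 0 with total counts, with only the groups compared and without both sharing animals (0 to 1); against rTta 0 with only the groups compared and without both sharing animals (0 to 1). P301L against rTta had 1 with only the groups compared, with all genes counted in these animals, or without choroid plexus cells. Of class pairs, leaving out 1 animal gave up to 1 for old against young WT, up to 2 for old against young rTg4510, 1 to 3 for rTta against WT, 0 to 1 for rTg4510 against P301L, 1 to 3 for rTg4510 against rTta and 0 to 1 for P301L against rTta. For rTta against WT only the groups compared gave 1. For rTg4510 against P301L there was 1 with DESeq2, with no low-count filter, without both sharing animals or without clusters of low counts, and 3 with only the groups compared. For rTg4510 against rTta there was 1 with DESeq2 and with only the groups compared, and for P301L against rTta 2 without the shared barcodes. Between classes the old WT animals alone gave 6 members against astrocytes, 9 against oligodendrocytes, 6 against microglia and 8 against endothelial cells; leaving out 1 animal gave 20 to 25, 26 to 30, 14 to 30 and 22 to 27; at least 600 counts per barcode gave 18 against microglia. Against microglia the sign turned for Psmb1 (-0.13 to 0.21 leaving out 1 animal) and for Psmg4 (0.10, old WT animals alone). The causes were not tested, and the shares of all genes called in these alternatives are not given here. Members with few counts limit the class fits, 18 being tested in mural cells.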

Other observations

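Members split by the range of animal numbers in some groups. In all cells of young WT animals, 29 of the 44 members were higher in both animals of the higher number range than in both of the lower, and 5 were lower, where 24.0% and 34.0% of 12558 genes counted in every animal were so. In old rTg4510 animals it was 11 higher and 0 lower (11.3% and 21.0% of all genes), and in old WT 5 and 0 (11.1% and 6.64%). No member did so in all 3 groups. The ranges also differ in age among the young animals and among the old ones. Old animals were of 37 to 40 weeks in the lower range and of 32 to 35 weeks in the higher. What the numbers stand for is not given in the labels.

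Around Psmc3ip, 29 other tested genes lie within 500 kb. Between rTta and old WT animals 0 of them were called in all cells by edgeR, with log2 changes from -1.31 to 0.85. Psmc3ip itself was highest in choroid plexus cells, at 133.0 to 188.6 CPM in the 5 animals with enough of them, none of which was an rTta animal.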
